A study of Homo sapiens with 9 samples.

Results

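The small nucleolar RNA (snoRNA) host genes described here are GAS5, SNHG1, SNHG3, SNHG5, SNHG6, SNHG8, SNHG12, SNHG15, SNHG16 and SNHG22. They were taken by name from a table of cross-link counts, through their Ensembl identifiers, and make up 10 of its 35309 identifiers and 2298 of its 15767969 windows. Of these windows, 1290 lie in exons and 1008 in introns, and the 2 kinds are kept apart throughout. The table holds 9 eCLIP libraries of Huh7, a human hepatocellular carcinoma cell line, all from UV-crosslinked cells. In eCLIP the RNA that stays covalently bound to an immunopurified protein is sequenced, and each read marks a cross-link site. There were 3 replicate libraries of an immunoprecipitation with an antibody to MDH2 (called MDH2 IP), 3 of a size-matched input (SMI), which is lysate RNA cut from the same gel range without immunoprecipitation, and 3 of an immunoprecipitation with an isotype-matched antibody (IgG IP). MDH2 is the mitochondrial malate dehydrogenase of the citric acid cycle. SMI libraries were amplified with 9 PCR cycles and both kinds of IP with 14, so cycle number and the step from SMI to IP cannot be told apart.

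snoRNAs guide chemical modification of other RNAs and work as small protein-RNA particles. Those of the C/D class guide methylation with fibrillarin, and those of the H/ACA class guide pseudouridylation with dyskerin, while small Cajal body RNAs (scaRNAs) guide modification of spliceosomal RNAs. Most are cut from introns of host genes. In the hosts named SNHG the spliced RNA is a long noncoding RNA, and several of these spliced RNAs are short-lived in the cytoplasm, where translation exposes them to nonsense-mediated decay. GAS5 is known for its accumulation in growth-arrested cells. A host locus therefore yields 2 kinds of RNA, a spliced host RNA and stable small RNAs, and windows over both carry the name of the host in a count table.

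Many of the differences described below lay on windows of resident genes, so 3 H/ACA residents, 2 C/D residents and 1 scaRNA are shown, written 5′ to 3′ from GRCh38 on the strand of the host. Capitals mark the ACA box in H/ACA residents, searched as ACA in the last 8 bases, and the C box (TGATGA in the first 20 bases) and the D box (CTGA in the last 20) in C/D residents, each on the RNA strand only. Neither the ACA nor the C and D boxes were found by these rules in the printed SCARNA17, the 144-nt gene of GENCODE, so it carries no capitals. Both C and D boxes were found in a second GENCODE scaRNA gene, of 83 nt and not shown, in the same exon of SNHG22. SNORA73A (chr1:28507366-28507571, + strand) lies in exon 2 of SNHG3, SNORA73B (chr1:28508559-28508762, +) in its intron 2, SNORA24 (chr4:118279190-118279320, +) in exon 1 of SNHG8, and SNORD25 (chr11:62855564-62855632, -) and SNORD27 (chr11:62855012-62855083, -) in exon 1 of SNHG1. SCARNA17 (chr18:49814133-49814276, +) lies in exon 1 of SNHG22. These exons are those of the count table, which merges all isoforms, so that an intron kept in any isoform counts as exon.
SNORA73A: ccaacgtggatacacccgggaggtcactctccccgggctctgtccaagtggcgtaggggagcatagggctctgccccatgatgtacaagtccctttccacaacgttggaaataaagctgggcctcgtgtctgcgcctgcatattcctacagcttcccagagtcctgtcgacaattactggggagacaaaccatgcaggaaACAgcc
SNORA73B: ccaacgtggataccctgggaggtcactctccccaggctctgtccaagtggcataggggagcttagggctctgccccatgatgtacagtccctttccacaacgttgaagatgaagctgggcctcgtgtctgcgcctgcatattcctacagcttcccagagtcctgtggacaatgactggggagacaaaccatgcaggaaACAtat
SNORA24: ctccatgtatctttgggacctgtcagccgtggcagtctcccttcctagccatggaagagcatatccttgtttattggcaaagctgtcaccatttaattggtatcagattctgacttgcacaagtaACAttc
SNORD25: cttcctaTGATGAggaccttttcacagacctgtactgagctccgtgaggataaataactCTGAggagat
SNORD27: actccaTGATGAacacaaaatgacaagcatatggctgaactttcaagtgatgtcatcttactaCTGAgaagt
SCARNA17: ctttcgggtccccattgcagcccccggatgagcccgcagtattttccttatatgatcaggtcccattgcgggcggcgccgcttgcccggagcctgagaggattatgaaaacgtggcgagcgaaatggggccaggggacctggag
An ACA was found by this rule in 7 of 8 resident H/ACA identifiers, in 1 of the 12 resident C/D identifiers searched and in 82.2% of 214 SNORA genes of the annotation, against 6.1% of 313 SNORD genes. Both C/D boxes were found in 5 of these 12 and in 62.6% of the SNORD genes, where one differing base in a box is enough to miss it. SNORA73A and SNORA73B were identical in 93.2% of 207 aligned positions, with a shared run of 54 bases. Since the authors kept reads with up to 10 alignments, counts of these 2 genes, and with them the exon and intron counts of SNHG3, can share reads.

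Summed window counts were 5899998 to 9482501 per library in MDH2 IP, 8311118 to 9788565 in SMI and 1631267 to 2942816 in IgG IP. One site enters up to 3 overlapping windows, so sums exceed the number of sites. The lower depth of IgG IP makes its values the least precise. Introns held 40.1% to 46.45% of window counts in MDH2 IP, 50.2% to 56.06% in SMI and 61.45% to 68.95% in IgG IP. The 10 hepatocyte genes checked, among them ALB, AFP and HNF4A, were all present in SMI, with median levels from 7.13 (APOC3) to 3210 (APOB) CPM (counts per library size after TMM normalization, from edgeR, scaled up to a common size). Of 6 genes of other cells, PTPRC, CD3E, GFAP and KRT5 had a median of 0, COL1A1 of 0.243 and PECAM1, an endothelial gene, of 4.21 CPM. The labels do not say whether replicates came from separate cultures, so p-values measure only the spread between these libraries, which may be technical.

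The 10 host genes together took 0.0991% to 0.121% of all window counts in MDH2 IP through their exons, 0.181% to 0.232% in SMI and 0.0944% to 0.116% in IgG IP. Their introns took 0.0175% to 0.0251% in MDH2 IP, 0.104% to 0.142% in SMI and 0.00719% to 0.0237% in IgG IP. In both exons and introns every SMI library lay above every library of the 2 IPs. SNHG3 alone supplied most of the SMI counts in exons as well as introns. Its exons gave 7904, 11535 and 10269 of the 15072, 21703 and 19493 member exon counts in SMI. The order of these sums therefore need not hold for the other members.

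**Figure D1:**
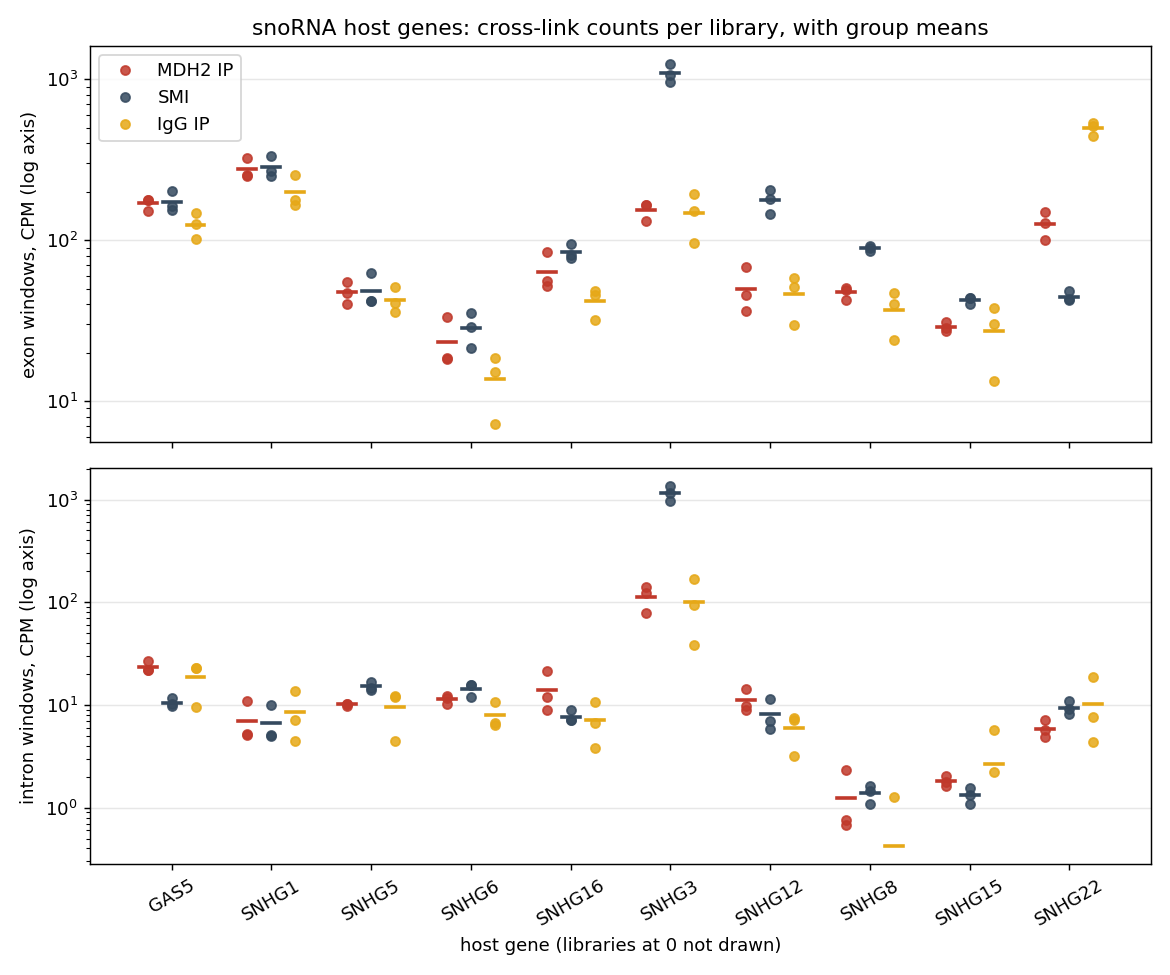
Cross-link counts of each host gene in CPM on a log axis, for exon windows (top) and intron windows (bottom), with 1 point per library and a bar at the mean of the 3 libraries of a group. SNHG3 stands about as high in MDH2 IP as in IgG IP and far below SMI, whereas SNHG22 exons are lowest in SMI and highest in IgG IP.

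The comparison of MDH2 IP with SMI asks which RNAs were enriched by the MDH2 antibody over RNA of the same gel range. Exon and intron sums of all genes were tested together with edgeR (quasi-likelihood test, two-sided, Benjamini-Hochberg adjustment), and a difference was called at an adjusted p of at most 0.05. All 10 members passed the filter on low counts in exons and in introns. SNHG3, SNHG12, SNHG8 and SNHG15 were lower in MDH2 IP in their exons and SNHG22 was higher. GAS5, SNHG1, SNHG5, SNHG6 and SNHG16 were not called. The 4 of 10 members lower compare with 6.79% of 13923 exon sums tested, and the 1 higher with 20.6%. The members' median log2 fold change was -0.36, against 0.27 over all exon sums. A count is a share of its library, so less of one RNA and more of others cannot be told apart.

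SNHG3, the host of SNORA73A and SNORA73B, showed the largest difference among the members. Its exon windows gave 1398, 1241 and 1067 counts in MDH2 IP against 7904, 11535 and 10269 in SMI. The level was 154.5 ± 19.9 CPM in MDH2 IP and 1087 ± 146 CPM in SMI (SD, n = 3), so that the groups lay far apart. The log2 fold change was -2.83 ± 0.17 (SE, edgeR adjusted p = 1.26e-05). IgG IP held 519, 151 and 210 counts, or 146.7 ± 48.8 CPM, a mean close to that of MDH2 IP. SNHG12, which houses SNORA61, SNORA44 and SNORA16A in exon 2 and the C/D gene SNORD99 in intron 2, had 384, 340 and 439 exon counts in MDH2 IP against 1206, 1908 and 1749 in SMI. Its log2 fold change was -1.85 ± 0.23 (edgeR adjusted p = 0.000716), again without overlap of the libraries.

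SNHG8, the host of SNORA24, had 453, 377 and 315 exon counts in MDH2 IP against 709, 852 and 867 in SMI, a log2 fold change of -0.92 ± 0.15 (edgeR adjusted p = 0.00169). SNHG15, the host of SNORA9, had 301, 203 and 199 against 360, 403 and 390, with a log2 fold change of -0.57 ± 0.16 (edgeR adjusted p = 0.0184). In CPM the SNHG15 libraries of the 2 groups did not overlap either, at 28.8 ± 1.91 and 42.5 ± 2.02. The SNHG15 call was lost without MDH2 IP replicate 1 (edgeR adjusted p = 0.0713), MDH2 IP replicate 2 (0.0619) or SMI replicate 1 (0.0698). It was also lost with total counts as library size (-0.40, adjusted p = 0.0733), with all 9 libraries in one fit (0.136) and without the top window (0.0772).

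SNHG22 went the other way. Its exon windows had 1366, 1118 and 647 counts in MDH2 IP, 398, 399 and 412 in SMI and 1189, 803 and 745 in the much shallower IgG IP libraries. The log2 fold change over SMI was 1.49 ± 0.19 (edgeR adjusted p = 0.000687). In CPM the order was 44.6 ± 3.23 in SMI, 126 ± 24.7 in MDH2 IP and 496 ± 48.3 in IgG IP, with no overlap between neighbouring groups.

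The 5 members without an exon call house mainly C/D snoRNAs. GAS5 had 1623, 1331 and 1142 exon counts in MDH2 IP against 1271, 1873 and 1580 in SMI, and SNHG1 had 2698, 2433 and 1616 against 2064, 3075 and 2615. The libraries overlapped for both genes, with log2 fold changes of -0.04 ± 0.16 (GAS5) and -0.04 ± 0.17 (SNHG1). SNHG5 had 426, 412 and 302 counts against 343, 579 and 405 (-0.05 ± 0.21), and SNHG6 had 193, 248 and 120 against 177, 327 and 281 (-0.30 ± 0.28), with overlap as well. SNHG16 had 552, 414 and 542 counts against 640, 752 and 925, with a log2 fold change of -0.42 ± 0.20 (edgeR adjusted p = 0.125). With the replicate number as a block, SNHG16 exons were called lower, at -0.44 (edgeR adjusted p = 0.000137).

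In introns SNHG3 and SNHG5 were lower and GAS5 was higher in MDH2 IP, where 30.7% of 14050 intron sums were lower and 9.35% higher. SNHG3 introns had 828, 1050 and 784 counts in MDH2 IP against 8042, 12580 and 11232 in SMI, a log2 fold change of -3.37 ± 0.24 (edgeR adjusted p = 3.37e-05). GAS5 introns had 235, 199 and 142 counts against 80, 108 and 99, a log2 fold change of 1.16 ± 0.20 (edgeR adjusted p = 0.00219), and their CPM did not overlap. In IgG IP they stood at 18.5 ± 7.81 CPM, between 23.6 ± 2.64 in MDH2 IP and 10.5 ± 1.02 in SMI. Neither MDH2 IP against IgG IP (0.44 ± 0.33, edgeR adjusted p = 0.359) nor IgG IP against SMI (0.84 ± 0.35, adjusted p = 0.108) was called for GAS5 introns. SNHG5 introns differed by -0.59 ± 0.20 (edgeR adjusted p = 0.0473) on 63 to 109 counts against 116 to 163, and the call was lost without any one of the 6 libraries and by DESeq2 (adjusted p = 0.0749). SNHG16 introns were not called (0.84, edgeR adjusted p = 0.062), but DESeq2 called them higher (0.89, adjusted p = 0.0407), as did total counts as library size, a lowered filter, a filter of at least 30 counts, sums fitted apart and the fit without MDH2 IP replicate 2. With the replicate block, 5 intron sums were called in place of 3, the added ones being SNHG16 (0.795, edgeR adjusted p = 0.00183) and SNHG22 (-0.69, adjusted p = 0.016).

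Relative to introns of the same gene, exons of MDH2 IP were higher than in SMI for 39.3% of 11414 genes and lower for 2.30% (limma on log2 of the exon-to-intron ratio). The median difference was 0.60 over all genes. Of the members, SNHG22 (2.16 ± 0.30, limma adjusted p = 3.58e-07) and SNHG3 (0.57 ± 0.22, adjusted p = 0.0367) were called higher. SNHG12 (-2.34 ± 0.29, limma adjusted p = 4.43e-08), SNHG16 (-1.21 ± 0.27, adjusted p = 0.000317) and GAS5 (-1.18 ± 0.23, adjusted p = 5.89e-05) were called lower. The SNHG3 call was kept in 1 of the 6 fits that left out a library, and the value turned to -0.07 when windows on residents were left out. The SNHG12 call was lost in the same way, at -0.25 (limma adjusted p = 0.585). With the replicate block SNHG5 was called higher as well (0.55, limma adjusted p = 0.027).

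The residents of the host genes were then read under their own identifiers, which the count table lists beside the hosts and which share sites with them. The 7 H/ACA residents with distinct counts were all lower in MDH2 IP than in SMI, where 6.79% of all exon sums were lower. Their median log2 fold change was -3.29, with a range from -3.92 to -2.70. SNORA73B held 513, 650 and 457 counts in MDH2 IP against 6972, 11354 and 10079 in SMI (-3.92 ± 0.25, edgeR adjusted p = 1.6e-05). SNORA73A held 404, 552 and 303 against 5126, 8107 and 6665 (-3.79 ± 0.27, adjusted p = 3.17e-05). Both genes stand among the most abundant residents in SMI, and the printed pair of sequences shows how close they are. SNORA44 (-3.59), SNORA61 (-3.29), SNORA9 (-2.86), SNORA16A (-2.76) and SNORA24 (-2.70) were lower too. SNORA24 held 54, 60 and 35 counts against 307, 410 and 372. SNORA16A is listed under 2 identifiers with identical counts and was counted once.

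Of the 11 C/D residents tested, 1 was called lower and 0 higher (2 higher at an unadjusted p under 0.05, 0 by DESeq2), with a median log2 fold change of 0.02. Over all exon sums 6.79% were lower and 20.6% higher, so 1 lower of 11 is near that share. The one called was the SNORD22 gene in exon 2 of SNHG1, with 482, 424 and 199 counts in MDH2 IP against 540, 725 and 619 in SMI (-0.645 ± 0.22, edgeR adjusted p = 0.0489). Another SNORD22 gene, in exon 1 of SNHG1, went the other way without a call. It held 37, 24 and 27 counts against 13, 20 and 12 (1.11 ± 0.41, edgeR adjusted p = 0.0605). SNORD25 held 86, 71 and 34 counts against 44, 70 and 47 (0.37 ± 0.32) and SNORD27 61, 105 and 48 against 102, 157 and 133 (-0.67 ± 0.33), both without a call. The difference between the 2 classes was itself not tested. SNORA genes outside the 10 hosts were lower in 80 of 89 tested, but 39 of the 89 reached 10 counts in every library of SMI and not of MDH2 IP, so that the filter favoured genes high in SMI. All 7 residents reached 10 counts in every library of both groups. SNORD genes outside them had 8 higher and 9 lower of 85, with a median of 0.10.

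**Figure D2:**
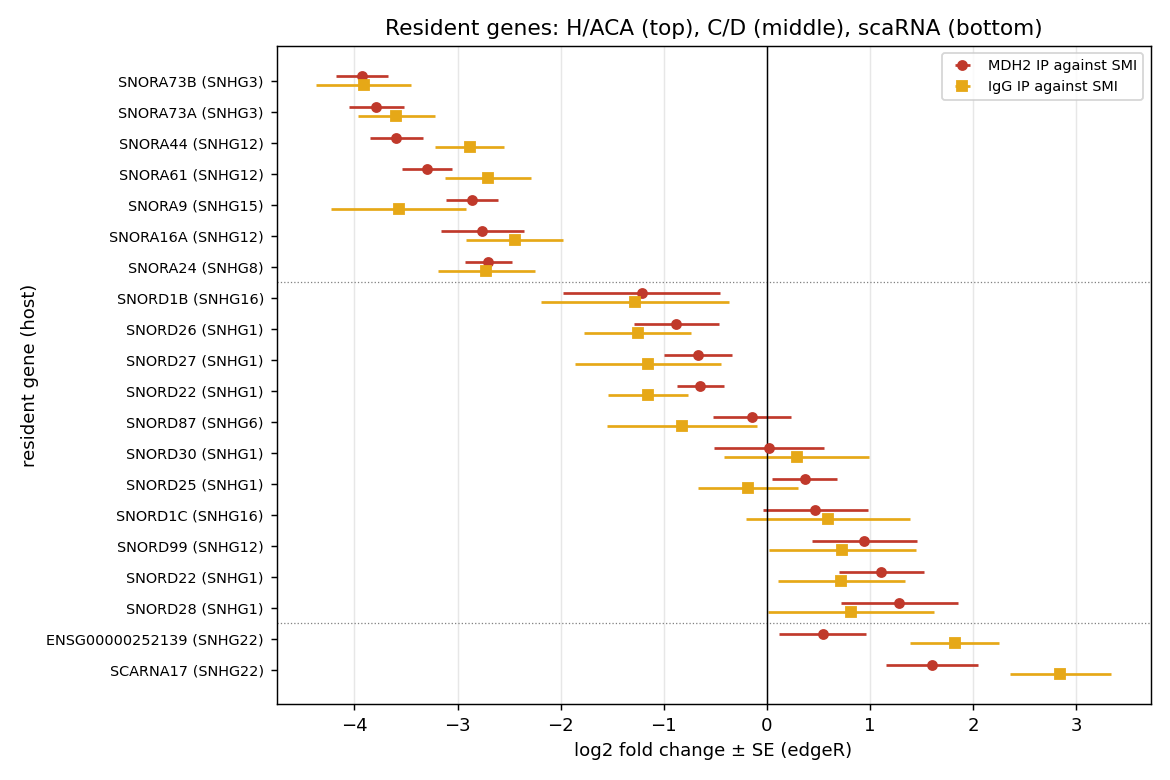
Log2 fold change of each resident gene over SMI, with bars of 1 SE, for MDH2 IP (circles) and IgG IP (squares), H/ACA genes at the top, C/D genes in the middle and scaRNAs at the bottom. All H/ACA residents lie between -3.92 and -2.45 in both IPs, C/D residents scatter around 0, and the scaRNAs lie above 0.

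In the hosts of H/ACA genes, windows that overlap a resident by at least 1 base held a large share of the counts in SMI. For SNHG3, exons and introns together, such windows held 90.05% of counts in SMI (87.99% to 92.66%) and 61.06% in MDH2 IP (53.75% to 74.81%). For SNHG12 the shares were 81.03% and 40.79%, for SNHG8 62.87% and 23.83%, and for SNHG15 46.54% and 11.69%. SNHG1, whose residents are of the C/D class, had 53.41% (52.21% to 54.92%) and 40.33% (31.29% to 49.16%). In these 5 hosts the SMI and MDH2 IP ranges did not overlap, while those of SNHG6, SNHG16 and SNHG22 did. Residents were placed only in the members, so no share over all genes can be set beside this. SNHG16 had 5.88% and 9.24%. GAS5 and SNHG5 could not be split, since the annotation used to place residents lists none for GAS5 and the one for SNHG5 had too few counts. SNORD30 of SNHG1 could not be placed either. RefSeq, however, lists 11 snoRNA genes within the span of GAS5 and 2 within that of SNHG5. Their exon and intron counts, with the called GAS5 introns, can therefore include snoRNA sites. RefSeq also lists SNORD29 and SNORD31 within SNHG1, whose windows off residents can hold their sites.

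With those windows left out, a choice made after the data were seen, 2 of the 10 exon sums differed between MDH2 IP and SMI in place of 5. SNHG12 then held 241, 178 and 273 counts against 190, 263 and 352, a log2 fold change of -0.003 ± 0.26. SNHG8 (0.14, edgeR adjusted p = 0.537) and SNHG15 (0.18, adjusted p = 0.465) turned to the other side of 0 without a call. SNHG3 stayed lower, with 833, 444 and 639 counts against 1326, 1438 and 1970 (-1.15 ± 0.20, edgeR adjusted p = 0.00224), and its introns likewise (-1.08 ± 0.30, adjusted p = 0.019). SNHG22 stayed higher (1.56, edgeR adjusted p = 0.000602), although its windows off the GENCODE residents still lie within the longer SCARNA17 of RefSeq described below. SNHG16 introns became a call (1.24, edgeR adjusted p = 0.0282).

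**Figure D3:**
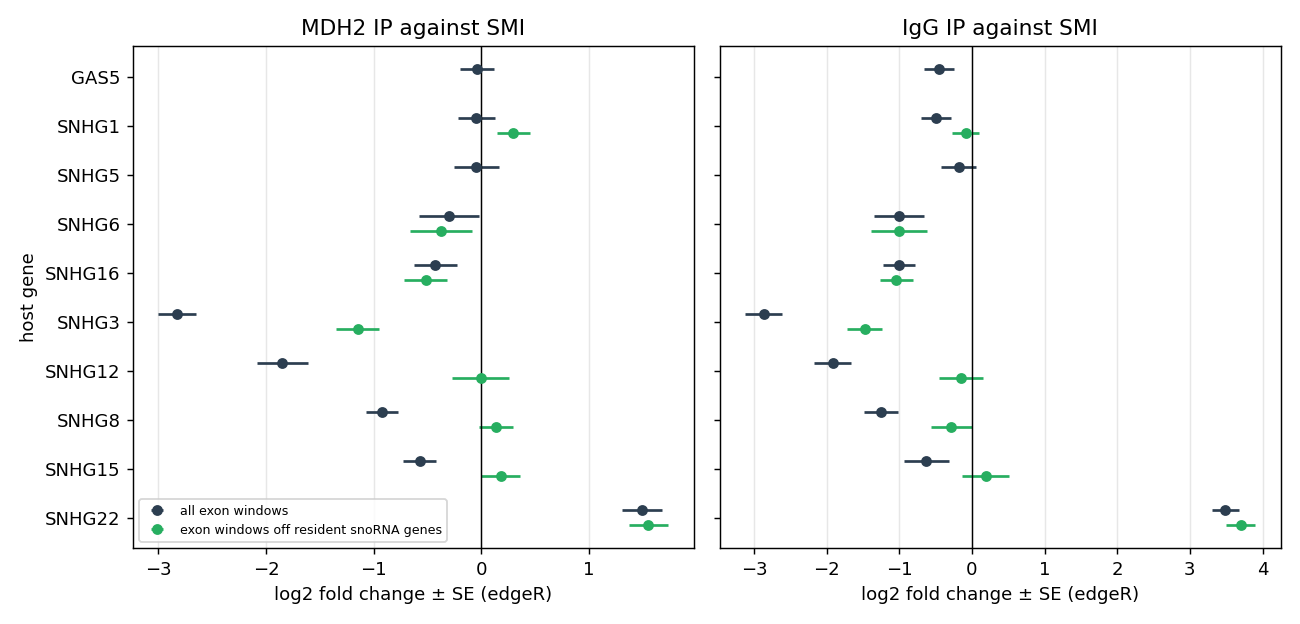
Log2 fold change of host gene exon sums with bars of 1 SE, over all exon windows and over exon windows off resident genes, for MDH2 IP against SMI and IgG IP against SMI. SNHG12, SNHG8 and SNHG15 move to near 0 once resident windows are left out, SNHG3 moves from -2.83 to -1.15 in MDH2 IP, and SNHG22 changes little. GAS5 and SNHG5 have only the point for all windows.

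Along SNHG3 the remaining difference was not even. Off the residents, exon 1 held 40, 42 and 57 counts in MDH2 IP against 39, 50 and 30 in SMI, and the libraries overlapped. Exon 2 held 420, 197 and 330 against 857, 828 and 1324, and exon 3 held 373, 205 and 252 against 430, 560 and 616. SNHG3 also overlaps RCC1 on the same strand, a gene for a chromatin-bound exchange factor, and reads of the 2 cannot be told apart in shared bases. SNHG5 and SNHG16 overlap other genes on their strand as well.

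**Figure D4:**
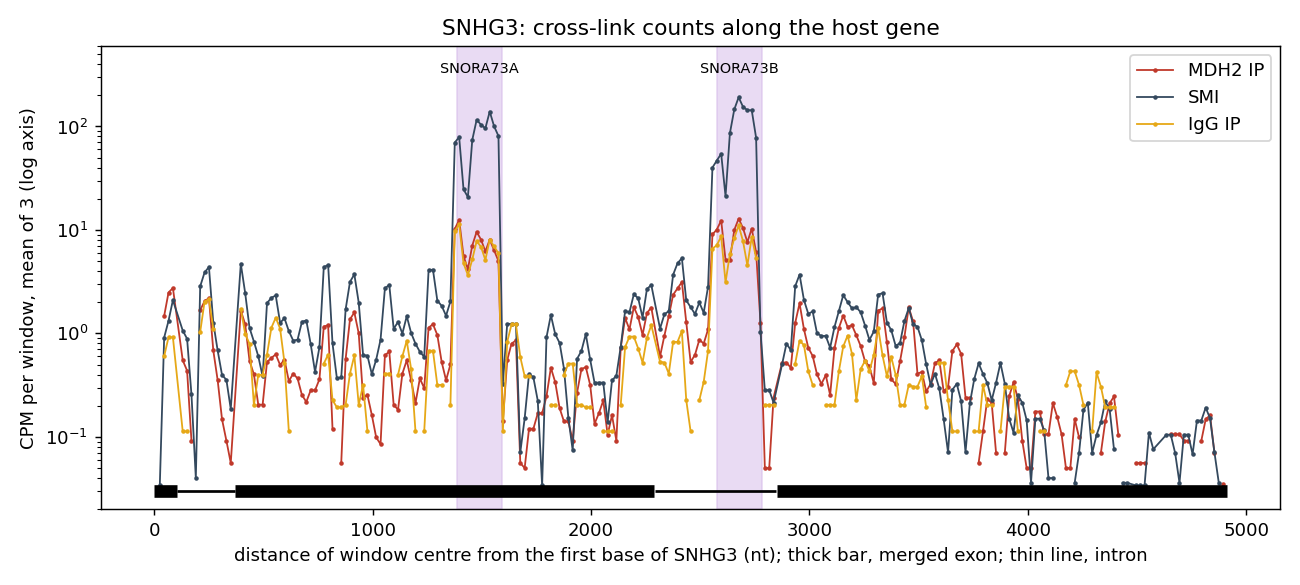
Mean CPM per 50-nt window on a log axis against distance in nt from the first base of SNHG3, one line per group, with bands over SNORA73A and SNORA73B and thick bars for exons. CPM here is scaled to the summed window counts of each library, without TMM. SMI rises far above both IPs within the bands, and the 3 lines lie closer together elsewhere.

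Single windows were tested in the same comparison with edgeR, one-sided in each direction, with p-values corrected for overlapping windows, and called only where the log2 fold change reached 1 in size. Of 288 member exon windows tested, 85 were lower and 6 higher, against 8.61% and 3.19% of all exon windows tested. These windows overlap one another and count one gene many times. Of 32 intron windows, 26 lie in SNHG3, which holds all 20 that were lower, and 0 were higher (3 higher at an unadjusted p under 0.05, 0 by DESeq2), against 25% and 13.3% of all intron windows. On H/ACA residents 55 of 56 tested windows were lower, but 28 of the 56 reached 10 counts in every library of SMI and not of MDH2 IP, so that they were tested only because SMI was high. The 27 that reached it in every MDH2 IP library were all lower. On C/D residents 5 of 26 windows were lower, with a median of -0.87, and 9 of the 26 passed through SMI in that way. Among the 227 windows off placed residents, 45 were lower and 3 higher, and 76 passed through SMI. Of windows with 10 counts in every MDH2 IP library, 3 of 16 on C/D residents and 11 of 91 off placed residents were lower.

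The leading windows are those with the highest level summed over all 9 libraries. This choice favours windows that are high in a single group, such as SMI, so they give no separate support for a split between resident classes. In SNHG3, the window with the most counts in exons lies on SNORA73A and held 57, 63 and 52 counts in MDH2 IP against 958, 1577 and 1312 in SMI (-4.62, edgeR adjusted p = 7.61e-12). The leading SNHG12 window, on SNORA61, held 17, 16 and 25 counts against 107, 159 and 126 (-2.88, edgeR adjusted p = 3.88e-07). The leading SNHG15 window, on SNORA9, held 8, 8 and 5 counts against 39, 53 and 58 (-2.98, edgeR adjusted p = 1.52e-06), and that of SNHG8, on SNORA24, 26, 34 and 15 against 83, 111 and 100 (-2.14, adjusted p = 1.45e-05). The leading SNHG1 window, on SNORD22, was not called, with 157, 138 and 69 counts against 174, 237 and 194 (-0.93). The leading GAS5 windows were not called either, with 46, 28 and 43 counts against 24, 28 and 25 in exons (0.44) and 27, 46 and 17 against 9, 18 and 3 in introns (1.41). The 23 SNHG12 and 6 SNHG15 exon windows tested were lower, but 19 and 6 of them passed the filter through SMI, which leaves 4 in SNHG12 and 0 in SNHG15 with 10 counts in every MDH2 IP library. GAS5 had 6 lower of 53 exon windows, SNHG1 7 of 82, SNHG16 1 of 16, and SNHG5 and SNHG6 had 0 called of 10 and 5. Among windows with 10 counts in every MDH2 IP library, GAS5 had 4 lower of 23, SNHG1 3 of 45 and SNHG16 0 of 6.

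SNHG22 is set apart by a single exon. Exon 1 held 98.5% to 100% of its exon counts in each of the 9 libraries, and its 20 windows cover the 421 nt that RefSeq gives to SCARNA17 (chr18:49814023-49814443). SCARNA17 belongs to the scaRNAs described above. The shorter GENCODE gene of that name, of 144 nt, held 88, 74 and 48 counts in MDH2 IP, 30, 36 and 9 in SMI and 46, 40 and 25 in IgG IP (1.60 over SMI, edgeR adjusted p = 0.0203). The second GENCODE scaRNA gene, of 83 nt, lies within the same 421 nt. It held 68, 64 and 25 counts in MDH2 IP against 43, 52 and 21 in SMI and was not called (0.54, edgeR adjusted p = 0.352). Counts formed a pair of peaks along the exon in all 3 groups. The highest window held 214, 162 and 84 counts in MDH2 IP, 33, 33 and 44 in SMI and 172, 104 and 115 in IgG IP (1.85 over SMI, edgeR adjusted p = 0.000208). Of 16 windows tested, 6 were higher in MDH2 IP than in SMI, against 3.19% of all exon windows tested. However, 6 of the 16 reached 10 counts in every library of MDH2 IP and not of SMI. Among the 10 that reached it in every SMI library, 4 were higher.

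**Figure D5:**
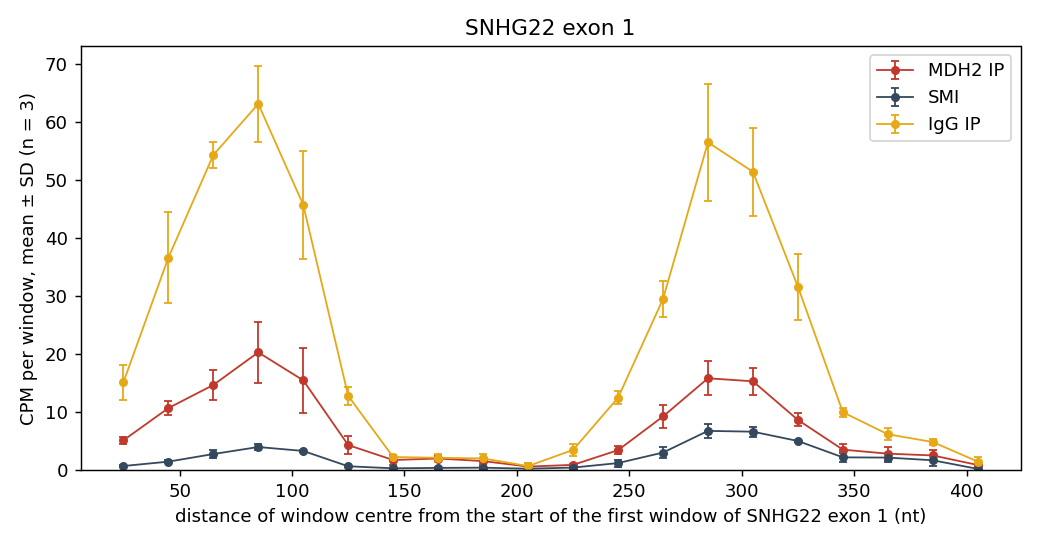
Mean CPM per 50-nt window with bars of 1 SD over 3 libraries, against the distance in nt of the window centre from the start of SNHG22 exon 1. As in the SNHG3 profile, CPM is scaled to summed window counts, without TMM. Both peaks, centred near 85 and 285 nt, are highest in IgG IP and lowest in SMI.

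The comparison of MDH2 IP with IgG IP asks what the MDH2 antibody brought down beyond an antibody with no such target. SNHG22 exons were lower in MDH2 IP, at -1.86 ± 0.21 (edgeR adjusted p = 0.000487), and no other member was called in exons. In all, 0 of 10 exon sums were higher (3 at an unadjusted p under 0.05, 1 by DESeq2), against 16.6% of 12573 exon sums, and 1 lower against 1.30%. GAS5 was at 0.54 ± 0.21 (adjusted p = 0.0826), SNHG1 at 0.58 (0.0925) and SNHG16 at 0.71 (0.0705), where the median of all exon sums was 0.58. SNHG3 was at 0.17 ± 0.25 (adjusted p = 0.655) and SNHG12 at 0.20 ± 0.30 (0.657). Of 9 intron sums tested, 0 were called (2 higher at an unadjusted p under 0.05, 0 by DESeq2), against 0.467% higher and 21.1% lower of 12847. The exon-to-intron ratio was called for 0 of 9 members by limma (2 at an unadjusted p under 0.05; DESeq2 was not run on ratios), against 46.9% higher and 0.0770% lower of 10384 genes.

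Windows gave a like count. Of 127 member exon windows, 14 were lower and 0 higher (9 at an unadjusted p under 0.05, 0 by DESeq2), against 3.22% and 0.0751% of all exon windows, and the 14 all lay in SNHG22. Of 20 intron windows, 0 were called (3 lower at an unadjusted p under 0.05, 0 by DESeq2), against 21.7% lower and 0.978% higher. For the residents, the shares of all exon sums are 16.6% higher and 1.30% lower. Of the 7 H/ACA residents, 0 were called (0 at an unadjusted p under 0.05, 0 by DESeq2), with a median of -0.07. SNORA73A was at -0.07 ± 0.40 and SNORA73B at 0.11 ± 0.45. Most of the IgG IP counts of this pair came from replicate 1, with 268 of SNORA73A against 47 and 63 in the other libraries, and it is also the deepest of the 3. Of the 10 C/D residents tested, 0 were called (0 at an unadjusted p under 0.05, 0 by DESeq2). SCARNA17 was lower, at -1.12 (edgeR adjusted p = 0.0285), while the second scaRNA gene of SNHG22 was not called, at -1.15 (adjusted p = 0.0572).

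IgG IP against SMI gives the background of an IP without the MDH2 antibody, and it shares its SMI libraries with the first comparison. SNHG3 (-2.87 ± 0.25, edgeR adjusted p = 1.52e-05), SNHG12 (-1.92 ± 0.25, adjusted p = 0.000251), SNHG8 (-1.25 ± 0.24, adjusted p = 0.00326) and SNHG16 (-1.004 ± 0.22, adjusted p = 0.00687) were lower in exons. SNHG22 was higher (3.49 ± 0.18, edgeR adjusted p = 7.27e-07). The 4 lower compare with 10.6% of 12788 exon sums and the 1 higher with 7.51%. In introns SNHG3 was lower (-3.50 ± 0.41, edgeR adjusted p = 0.00011) and 0 of 9 were higher (1 at an unadjusted p under 0.05, 0 by DESeq2), against 5.44% lower and 20.2% higher. The 7 H/ACA residents were lower, although only 2 of them reached 10 counts in every IgG IP library and the other 5 passed the filter through SMI. Of the C/D residents, 0 of 11 C/D residents were called by edgeR (2 lower at an unadjusted p under 0.05, 1 by DESeq2). Of 203 exon windows 37 were lower and 16 higher, against 5.51% and 5.06%, and of 25 intron windows 12, all in SNHG3, were lower, against 15.2%. Most of these windows also passed through SMI, the deeper group. All 14 SNHG22 windows tested were higher, and 10 of these reached 10 counts in every SMI library. Exon-to-intron ratios were lower for GAS5 (-1.20, limma adjusted p = 0.0433) and SNHG12 (-1.55, adjusted p = 0.0356) and higher for SNHG22 (3.55, adjusted p = 0.00289), against 10.6% lower and 0.895% higher of all genes. The GAS5 call held in 1 and the SNHG12 call in 2 of the 6 fits that left out a library, both were lost without the top window and over non-overlapping windows, and GAS5 was also lost with the replicate block (adjusted p = 0.0559). Without resident windows, SNHG3 exons stayed lower (-1.48, edgeR adjusted p = 0.00105), and SNHG12 was at -0.15 (adjusted p = 0.764).

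Other genes of the pathway were read in the same fits, beside the shares over all sums. Of all exon sums, 20.6% were higher and 6.79% lower in MDH2 IP than in SMI. Against IgG IP these shares were 16.6% and 1.30%, and in IgG IP against SMI 7.51% and 10.6%. Of all intron sums, 9.35% were higher and 30.7% lower in MDH2 IP than in SMI. Against IgG IP these were 0.467% and 21.1%, and in IgG IP against SMI 20.2% and 5.44%. Of 22 further noncoding snoRNA hosts, 16 passed the filter in exons, and 0 were higher and 4 lower in MDH2 IP than in SMI, with a median of -0.41. In MDH2 IP against IgG IP 1 of them was higher and 0 lower, and in IgG IP against SMI 4 were lower. Of 29 protein-coding hosts tested, mostly ribosomal protein genes, 3 were higher and 10 lower than in SMI (median -0.25), and 18 were higher and 0 lower than in IgG IP (median 0.77), while 21 were lower in IgG IP than in SMI. Genes of the snoRNP proteins, which assemble on snoRNAs, had 3 higher and 0 lower of 12 exon sums against SMI (median 0.28), close to the 20.6% of all exon sums, and 1 higher of 12 against IgG IP (median 0.71). In their introns 2 of 11 were lower than in SMI. Factors of nonsense-mediated decay had 6 higher and 0 lower of 10 exon sums against SMI and 4 higher of 10 against IgG IP, with a median of 0.70 in both. In their introns 1 of 9 was higher and 3 lower than in SMI, and 3 were lower than in IgG IP. In IgG IP against SMI neither list had an exon call, while 2 intron sums of snoRNP proteins and 1 of decay factors were higher.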

How the data were processed

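The deposited table holds raw counts of cross-link sites in 50-nt windows, moved in steps of 20 nt over merged exons and introns of GENCODE v23 (GRCh38) with tRNAs added. The authors collapsed PCR copies using unique molecular identifiers, kept reads that aligned at up to 10 locations, and took the base upstream of each alignment start as the site. Here window counts were summed per gene over exons and over introns, and features that reached 10 counts in 3 or more of 6 libraries were tested with edgeR 4.0.16 (quasi-likelihood, TMM, no covariate, R 4.3.3) or, for log2 ratios of deposited counts with 0.5 added, limma 3.58.1. Calls needed an adjusted p of at most 0.05. DESeq2 1.42.0, other filters, scalings, sums, a replicate block and leaving out each library were alternatives. Named were all members, their leading windows and their residents. Sequences were read from GRCh38 at GENCODE v44 positions, and 33751 of 34950 Ensembl identifiers matched. Residents were placed in host windows by matching counts over the 9 libraries. The members and lists were chosen with earlier results of these data known. Same-numbered MDH2 IP and SMI libraries deviated together to differing degrees (correlations 0.125, 0.476 and 0.489). The main fits leave this pairing out, so their p-values are those of unpaired libraries. The replicate block is the alternative that uses it, and it changed some calls. The scripts were tested on simulated data.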

Additional observations from a re-analysis of the deposited data

How the results depend on the processing

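Against SMI, calls of SNHG3, SNHG12, SNHG8 and SNHG22 exons and of SNHG3 and GAS5 introns held in all 6 fits that left out a library. SNHG5 introns held in 0 of them. With member windows on residents left out, member exon calls fell from 5 to 2 and ratio calls from 5 to 3, SNHG15 (0.18) and SNHG8 (0.14) exons and the SNHG3 ratio (-0.068) changed sign, and in IgG IP against SMI exon calls fell from 5 to 3 and the SNHG12 ratio turned to 0.46. The replicate block gave 5 intron calls. At least 30 counts in 3 libraries gave 56 window calls in place of 111, and leaving out a library gave 57 to 103 (57, 67 and 61 without SMI replicates 1, 2 and 3).

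For MDH2 IP against IgG IP, the 1 exon call became 4 with total counts as library size, 2 with DESeq2, 5 with a lowered filter, 4 with the replicate block, 2 over non-overlapping windows and 1 to 3 without a library (3 without IgG IP replicate 1). The 0 intron calls became 1 with the lowered filter, the replicate block, and exon and intron sums fitted apart. The 1 resident call became 0 with total counts and with the lowered filter, 2 with DESeq2, at least 30 counts and all 9 libraries in one fit, 3 with the replicate block and 0 to 3 without a library (3 without IgG IP replicate 1, 0 without IgG IP replicate 2 or any MDH2 IP replicate). The 0 ratio calls became 1 with at least 30 counts, all 9 libraries, the replicate block and resident windows left out, 2 with a pseudocount of 5 and 0 to 1 without a library (1 without IgG IP replicate 1). For same-numbered libraries the correlations of deviations were -0.028, 0.209 and 0.269 here, and 0.005, 0.23 and 0.277 in IgG IP against SMI. What same-numbered libraries share is not said in the labels.

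For IgG IP against SMI, the 5 exon calls became 8 with total counts and 9 with the lowered filter, the 1 intron call became 2 with total counts, with sums fitted apart and without IgG IP replicate 2 (1 to 2 over libraries left out), the 65 window calls became 37 to 64 without a library (37, 38 and 37 without SMI replicates 1, 2 and 3), and the 3 ratio calls became 7 with a pseudocount of 5, 1 without the top window, 1 over non-overlapping windows and 1 to 3 without a library (1 without any SMI replicate). The cause of these changes was not tested, except that resident windows and libraries were removed by construction.

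Total counts as library size moved the median of all exon sums by 0.173, 0.201 and -0.155 in the 3 comparisons, and the share of calls that were higher from 75.2% to 86.1% (exons) and 23.3% to 35% (introns) in MDH2 IP against SMI and from 41.4% to 26.6% and 78.8% to 63.5% in IgG IP against SMI. Of 1314 recomputed member values, 4 changed sign with a call, 43 lost and 60 gained a call, and 72 changed sign without a call in either fit. The IgG IP libraries have the fewest counts, and a difference missed there may lie below what their depth can show.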
